A study of Mus musculus with 27 samples.

Results

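DNA copy number was compared between medulloblastoma allografts that had become resistant to the drug NVP-LDE225 and allografts from mice given vehicle. The comparison used the 6 DNA arrays of a series of 27 samples, chosen by their status label: 3 tumours labelled Resistant, taken at 40, 80 and 160 mg/kg/day, and 3 vehicle tumours, whose status label reads Sensitive. The other 21 samples were RNA arrays and were not used here. Only autosomes were analysed.

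All 6 tumours had the genotype Ptch+/-p53-/- and grew as medulloblastoma allografts in nude mice. Mice had been treated for 26 days, with LDE225 given as a split daily dose in the resistant group and with vehicle in the other. Each resistant dose was represented by 1 tumour, so a property of a dose and a property of a tumour cannot be told apart. The labels put the appearance of resistance at 13, with no unit, into uninterrupted treatment. The labels of the 160 mg/kg/day tumour conflict: status, treatment and dose place it with the drug, but vehicle is what both its title and its source name say. It was placed by its status, and the main counts are also given without it. The allografts contain cells of the nude mouse host, and the share of host DNA in each extract was not measured. No label says whether the tumours came from 1 donor tumour or several, so the p-values below measure the spread between these 6 samples. The 80 and 160 mg/kg/day tumours shared 20 breakpoints, 16 of them at the same probe, as described below. The tests count them as separate samples, and whether they are independent of each other was not tested.

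Hedgehog signalling drives a subgroup of medulloblastoma. Ptch1 is the receptor that holds the membrane protein Smo inactive; when Smo is free, it acts through the primary cilium and the Gli transcription factors, with Sufu as a brake between them. LDE225 (sonidegib) binds and blocks Smo. In array comparative genomic hybridisation, tumour and normal DNA compete for the same probes, and the log2 of their ratio follows the relative copy number of each locus.

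Tumour DNA was labelled with Cy5 and DNA of 1 wildtype mouse liver sample, the same for all arrays, with Cy3. Every value below is a log2 ratio of tumour over liver DNA, centred on the autosomal median of its array. Positions are those of the array design in mouse build mm8. The 220478 autosomal probes with a value on all 6 arrays were averaged in 2396 windows of 1 Mb and over 10153 genes with at least 3 probes. Precision is limited by having 3 arrays a group. The probe noise, as the SD between neighbouring probes, was 0.318, 0.280 and 0.462 in the 40, 80 and 160 mg/kg/day tumours and 0.132, 0.198 and 0.176 in the vehicle tumours. Noise was therefore higher in every resistant tumour, and its part in the counts below was not tested. The 3 probes named Trp53 averaged 0.02, 0.03 and -0.04 in the resistant tumours and 0.25, 0.10 and 0.20 in the vehicle tumours. Whether these probes lie in the deleted part of the gene is not known here, so they do not check the labels.

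The first question was how far the resistant tumours had moved from the vehicle profile. The 3 vehicle tumours had nearly the same profile: Pearson's r across the 2396 windows was 0.989 to 0.995 between them. Each resistant tumour correlated with the vehicle tumours at 0.584 to 0.713. The 80 and 160 mg/kg/day tumours were closer to each other (r = 0.821) than either was to the 40 mg/kg/day tumour (r = 0.634 and 0.581). All arrays share the liver DNA and the whole-chromosome gain of chromosome 6, whose median was 0.49, 0.45 and 0.48 in the resistant tumours and 0.48, 0.48 and 0.50 in the vehicle tumours, so these correlations are descriptions. The groups did not overlap in 26.0% of windows with the resistant tumours higher and in 20.5% with them lower.

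Called gains, defined as segments with a mean of at least 0.3, covered 7.15%, 11.9% and 11.5% of autosomal probes in the 40, 80 and 160 mg/kg/day tumours, against 7.11%, 7.01% and 7.10% in the vehicle tumours. At this call size the 40 mg/kg/day tumour was thus barely above the vehicle tumours in gains, and the 80 and 160 mg/kg/day tumours were well above. Chromosome 8 of the 40 mg/kg/day tumour averaged 0.25 over 11362 probes, which is under the 0.3 asked for a call. Called losses covered 2.75%, 5.35% and 7.93% in the resistant tumours and 1.20%, 1.11% and 1.18% in the vehicle tumours, with no overlap. With the normexp background model, an alternative way of treating local background, the difference in losses was 2.48 percentage points and the groups overlapped (exact permutation p = 0.4). The difference in gains was 3.12 percentage points in the main values and -0.215 with normexp, so the excess of gains depended on the background model. The mean share in losses was 5.34% ± 2.59 in resistant and 1.16% ± 0.051 in vehicle tumours (SD, n = 3 each; two-sided exact permutation p = 0.1, the smallest that 3 against 3 can give). Without the 160 mg/kg/day tumour the difference in losses was 2.89 percentage points, against 4.18 with it.

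Whole-chromosome levels set different tumours apart. The chromosome 19 median was -0.03, -0.45 and -0.74 in the 40, 80 and 160 mg/kg/day tumours, against 0.00, -0.01 and 0.00 in the vehicle tumours. Chromosome 8 was raised in the 40 mg/kg/day tumour alone, at 0.23, -0.05 and -0.03 in the resistant and -0.01, -0.03 and -0.03 in the vehicle tumours. The chromosome 10 median was -0.23, -0.17 and -0.22 in the resistant and -0.03, -0.03 and -0.02 in the vehicle tumours. On chromosome 10 all 3 resistant tumours were low by a like amount, with a mean of -0.21 ± 0.030 against -0.03 ± 0.003 (SD, n = 3 each; exact permutation p = 0.1, Benjamini-Hochberg adjusted p = 0.271 over 19 autosomes). Without the 160 mg/kg/day tumour the resistant mean was -0.20. The lost parts of chromosome 10 differed between the tumours, as described below. On chromosomes 5, 7, 11 and 17 all resistant medians were also below the vehicle medians, by smaller mean differences of -0.03, -0.03, -0.04 and -0.02. The medians of the groups did not overlap for 7 autosomes (1, 5, 7, 10, 11, 17 and 19), and none can pass at this number of arrays.

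**Figure D1:**
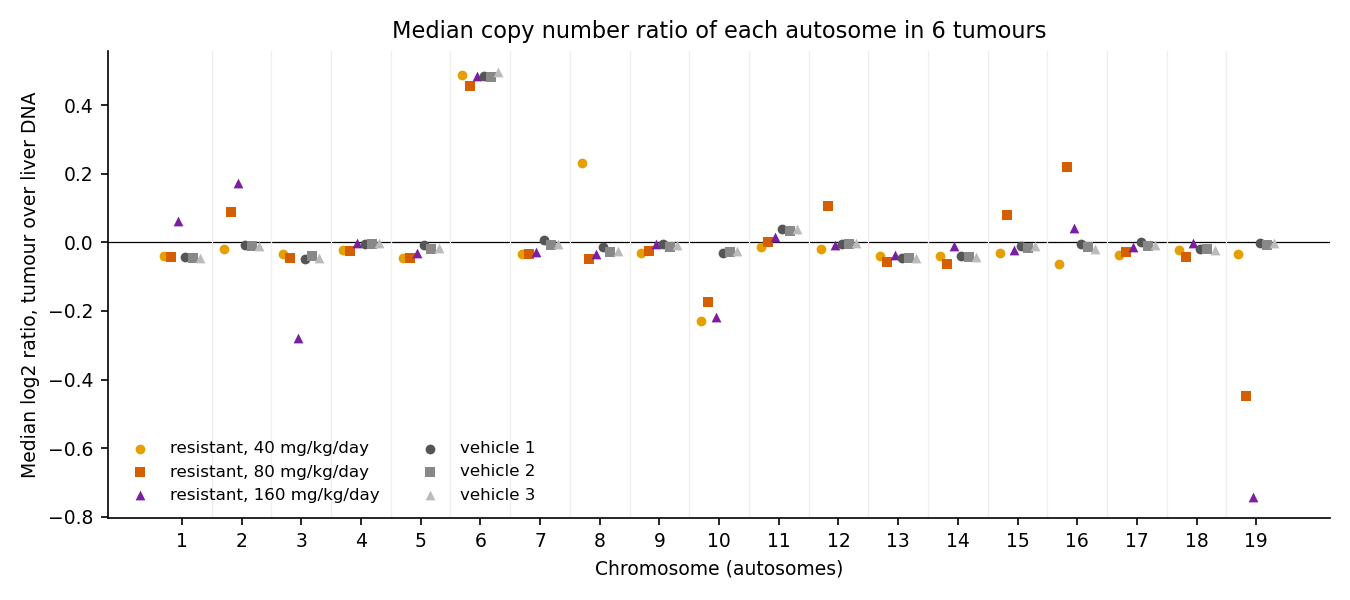
Median log2 ratio of tumour over liver DNA (y axis) on each autosome (x axis), 1 point per tumour, resistant tumours in colour on the left of each column and vehicle tumours in grey on the right. Chromosome 6 is near 0.5 in all 6 tumours, chromosome 10 is low in all 3 resistant tumours, and chromosome 19 is low at -0.45 and -0.74 in the 80 and 160 mg/kg/day tumours.

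The second question was which regions changed in every resistant tumour. A stretch of proximal chromosome 10 was lost in all 3 resistant tumours and in no vehicle tumour, in 2 blocks. A short gap between them was also lost in the 40 mg/kg/day tumour but not in the other two. The first common loss ran from base 8987090 to 30864007 (1928 probes) and averaged -0.88, -0.74 and -0.76 in the 40, 80 and 160 mg/kg/day tumours, against -0.07, -0.06 and -0.05 in the vehicle tumours. The second ran from 31346398 to 38545777 (475 probes) and averaged -0.89, -0.67 and -0.74 in the resistant and -0.12, -0.10 and -0.10 in the vehicle tumours. Every resistant tumour lay far below every vehicle tumour in both. The 80 and 160 mg/kg/day tumours shared breakpoints here, so a loss in all 3 tumours may not stand for 3 independent events. Their independence was not tested.

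In the test of resistant against vehicle tumours over windows (limma with Benjamini-Hochberg adjustment), 137 windows (5.72%) passed: 121 windows were lower (5.05% of those tested) and 16 were higher (0.668%) at an adjusted p under 0.05. Of these, 28 were also at least 0.3 lower (1.17%), and all 28 lay in the common losses of chromosome 10, where the adjusted p ran from 0.0015 to 0.038. None was at least 0.3 higher (0.0%). At an unadjusted p under 0.05 there were 725 windows (30.3%), and the normexp alternative called 0 windows with 705 at an unadjusted p under 0.05. Without the 160 mg/kg/day tumour, 25 of the 29 windows tested in this stretch were called lower, with a median difference of -0.74 over the 29. Without any 1 vehicle tumour, 24 were.

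The chromosome 10 call depended on how background was treated. With the normexp background model 0 windows passed, and the 28 windows had a median difference from the vehicle mean of -0.48, -0.05 and -0.70 in the 40, 80 and 160 mg/kg/day tumours, so that the loss was nearly absent from the 80 mg/kg/day tumour on that scale. With the same local background plainly subtracted, an alternative added after seeing the data, the first common loss was -0.80, -0.64 and -0.69 below the vehicle mean in the 3 tumours and 29 windows of the stretch passed. With the 160 mg/kg/day tumour placed by its title among the vehicle tumours, 0 windows passed anywhere by limma, with 240 at an unadjusted p under 0.05.

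**Figure D2:**
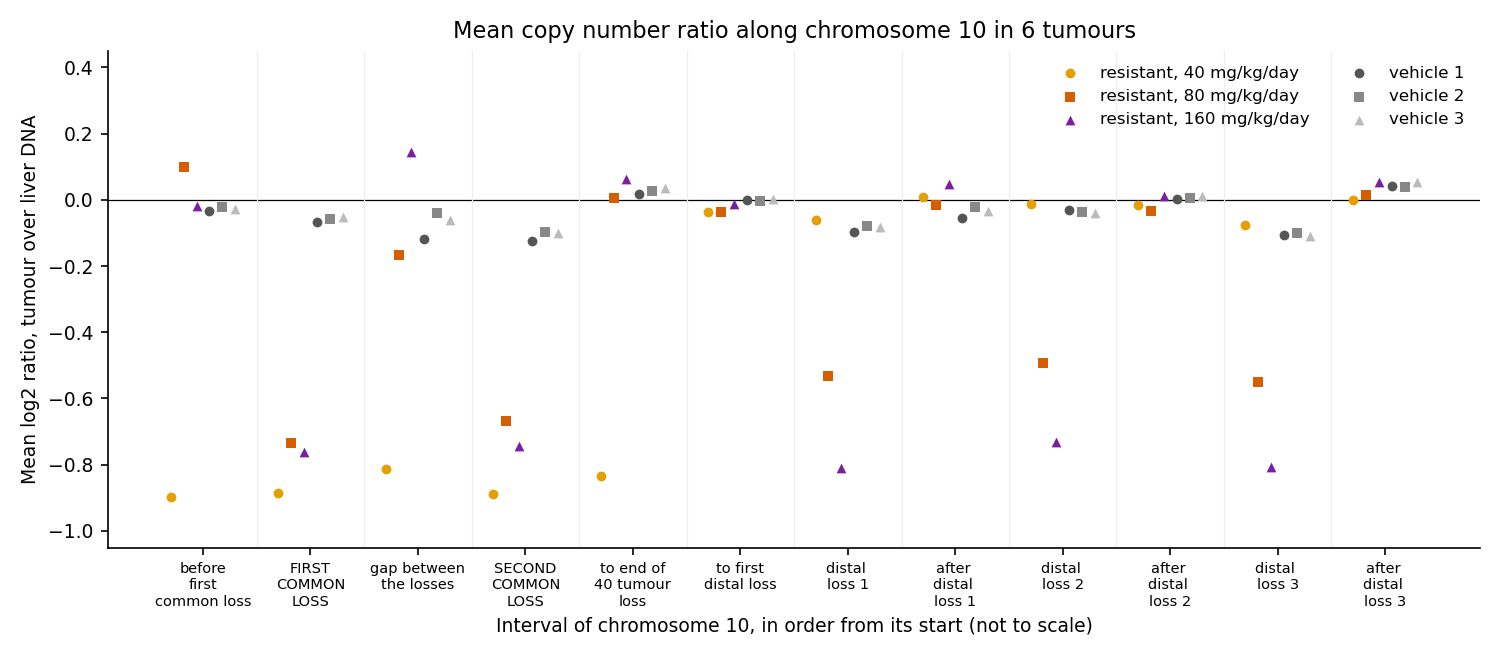
Mean log2 ratio of tumour over liver DNA (y axis) in 12 consecutive intervals of chromosome 10 (x axis, in order, not to scale), 1 point per tumour, resistant tumours in colour on the left and vehicle tumours in grey on the right. All 3 resistant tumours are low in the first and second common loss, the 40 mg/kg/day tumour alone is low in the flanks and the gap, and the 80 and 160 mg/kg/day tumours alone are low in the 3 distal losses.

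The borders of the loss in the 40 mg/kg/day tumour differed from those in the 80 and 160 mg/kg/day tumours. In the 40 mg/kg/day tumour the loss was 1 unbroken segment from the first probe at 3002742 to 45612178, at -0.83 relative to the vehicle mean. In the 160 mg/kg/day tumour it was 2 segments with sharp borders, at -0.70 from 8987090 to 30864007 and -0.64 from 31365485 to 38545777, and the 0.474 Mb between them was 0.21 above the vehicle mean. The gap holds 2 genes with probes, Tpd52l1 and Hddc2, named after their values were seen. Tpd52l1 was at -0.74, -0.15 and 0.24 in the 40, 80 and 160 mg/kg/day tumours and -0.11, -0.01 and 0.00 in the vehicle tumours, so it was low in the 40 mg/kg/day tumour only.

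The 80 mg/kg/day tumour had the 160 mg/kg/day tumour's borders and further ones of its own. Relative to the vehicle mean it was 0.15 higher up to base 8476620, 0.19 lower from 8482063 to 8987149, and 0.68 lower across the first common loss. Past the gap, at -0.10, it was 0.63 lower to base 34621408 and 0.43 lower to 38545777. The steps at 8482063 and 34646531 had no counterpart in the 160 mg/kg/day tumour. From 38566027 to 94941367 its mean was 0.04 below the vehicle mean, while the 40 mg/kg/day tumour stayed low for another 7.046 Mb.

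Genes inside the common losses were lower in all 3 resistant tumours. Of 100 genes with probes there, 75 had at least 3 probes and were tested, and 73 of them passed (limma, adjusted p 0.0019 to 0.036), against 111 genes lower (1.09%) and 7 higher (0.0689%) of the 10153 tested in all, 118 genes or 1.16% together. With a size of at least 0.3 also asked, 82 genes were lower (0.808%) and 2 higher (0.0197%), and 34.8% of genes had an unadjusted p under 0.05. All 75 were lower in each resistant tumour than in any vehicle tumour, where 46.0% of all genes tested did not overlap in one direction or the other. Their differences ran from -1.10 to -0.41 with a median of -0.71, against a median of -0.0041 over all genes tested. The stretch was found with the same arrays, so the gene counts describe its content and are not further evidence of the loss. The 2 that did not pass were Hint3, at a difference of -0.41, and Zup1, at -0.55, both with limma adjusted p = 0.055. With normexp, and with the 160 mg/kg/day tumour placed by its title, limma called 0 of the 75, with 51 and 47 at an unadjusted p under 0.05. Without the 160 mg/kg/day tumour 71 passed, and without vehicle replicate 1, 2 or 3 the numbers were 50, 51 and 44.

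Several of the lost genes have known roles in growth control and neural development. Some of the genes named from the common losses were chosen for their role or probe number after their values were seen. Plagl1, an imprinted zinc finger gene that restrains proliferation, was at -1.02, -0.89 and -0.99 in the 40, 80 and 160 mg/kg/day tumours and -0.04, -0.05 and -0.07 in the vehicle tumours (difference -0.91, SE 0.046, limma adjusted p = 0.0019). Olig3, a transcription factor of hindbrain progenitors, was at -0.92, -0.91 and -0.88 in the resistant and 0.04, 0.04 and -0.05 in the vehicle tumours (difference -0.91, SE 0.039, limma adjusted p = 0.0019). Both genes were nearly as low in the 80 mg/kg/day tumour as in the other two. Map3k5, a stress kinase upstream of JNK and p38, was measured by 24 probes at -0.89, -0.69 and -0.74 in the resistant and -0.03, -0.02 and 0.02 in the vehicle tumours (difference -0.76, limma adjusted p = 0.0029).

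The deepest difference was that of Vnn1, a pantetheinase, at -1.26, -1.06 and -1.32 in the resistant and -0.01, -0.18 and -0.15 in the vehicle tumours. It rests on 3 probes, and its neighbour Vnn3, also with 3, differed by -0.62. Genes with many probes lay closer to one another. Nkain2 (129 probes) differed by -0.68, Lama2, a laminin chain (70 probes), by -0.73, Ptprk, a receptor tyrosine phosphatase (67 probes), by -0.73, Utrn, the dystrophin relative utrophin (67 probes), by -0.72, and Pde7b, a cyclic AMP phosphodiesterase (48 probes), by -0.82.

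Other genes that passed cover signalling and cell surface functions. Rspo3, a secreted enhancer of Wnt signalling, differed by -0.73 and Adgrg6, an adhesion receptor, by -0.73. Ifngr1, a chain of the interferon gamma receptor, had the smallest difference among those that passed, at -0.42, -0.33 and -0.31 in the resistant and 0.10, 0.04 and 0.14 in the vehicle tumours (difference -0.44, limma adjusted p = 0.0097). Ahi1, a gene of the ciliary transition zone, differed by -0.60 (limma adjusted p = 0.009).

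In the second common loss, Frk, a Src-family kinase, was at -0.91, -0.82 and -0.80 in the resistant and -0.12, -0.06 and -0.08 in the vehicle tumours, and Nt5dc1 differed by -0.75. Hdac2, a histone deacetylase, lies beyond the inner step of the 80 mg/kg/day tumour and was at -0.76, -0.48 and -0.67 in the resistant and 0.04, 0.00 and 0.00 in the vehicle tumours (difference -0.65, SE 0.072, limma adjusted p = 0.015). It was thus less deep in the 80 mg/kg/day tumour than Frk, which lies before that step. The differences on either side of the step, 0.63 and 0.43 below the vehicle mean, were descriptions of 1 tumour and had no test.

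**Figure D3:**
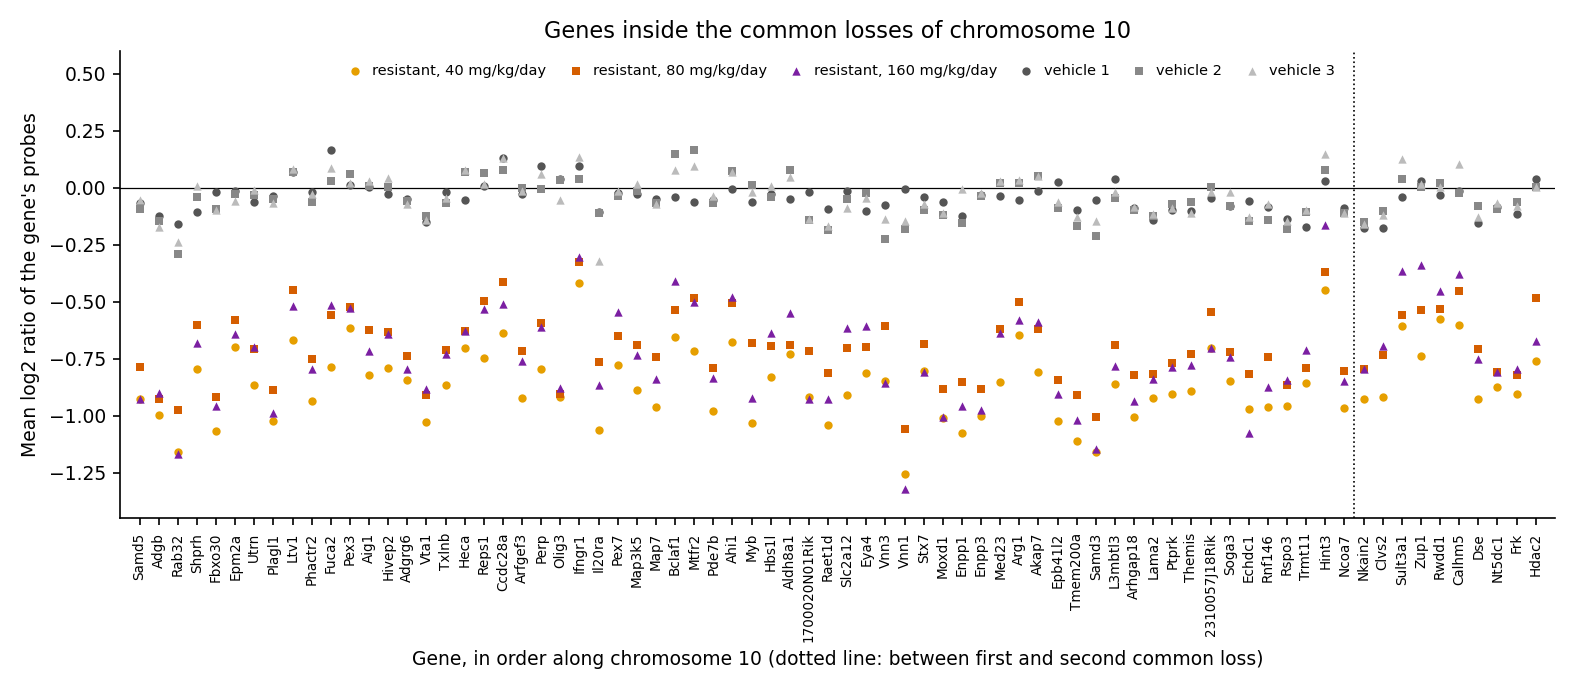
Mean log2 ratio (y axis) of 74 of the 75 tested genes inside the common losses, in order along chromosome 10 (x axis, not to scale), 1 point per tumour, resistant tumours in colour and vehicle tumours in grey. Each gene's 3 resistant points lie below its 3 vehicle points, with Vnn1 the lowest and Hint3 and Ifngr1 the nearest to the vehicle tumours.

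The third question was how the resistant tumours differed among themselves. Windows at least 0.3 above the vehicle mean numbered 59 (2.46%), 106 (4.42%) and 117 (4.88%) in the 40, 80 and 160 mg/kg/day tumours, and windows at least 0.3 below it 43 (1.79%), 107 (4.47%) and 179 (7.47%). Of all these windows 29 were low in all 3 tumours, each on chromosome 10, and none was high in all 3. The 80 and 160 mg/kg/day tumours shared 181 windows, which was 84.98% of the 213 windows of the 80 mg/kg/day tumour and 61.15% of the 296 of the 160 mg/kg/day tumour. The 40 mg/kg/day tumour shared only the 29 chromosome 10 windows with either, 28.43% of its 102. No window was high in one tumour and low in another. All 3 comparisons share the vehicle mean, and with 1 tumour each they had no test.

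Breakpoints, taken as steps of at least 0.2 in the difference from the vehicle mean, numbered 8, 45 and 31 in the 40, 80 and 160 mg/kg/day tumours. The 80 and 160 mg/kg/day tumours shared 20 of them within 20 kb and in the same direction, 16 at the same probe, on chromosomes 1, 2, 10 and 16. The 40 mg/kg/day tumour shared 0 with either, the borders of its chromosome 10 loss included. At all 20 shared breakpoints the step was smaller in the 80 mg/kg/day tumour, at 0.468 to 0.749 times that of the 160 mg/kg/day tumour with a median of 0.585. Where the change of the 80 mg/kg/day tumour was split, only the step at the shared border was counted. At the start of the first common loss it went from 0.15 to -0.19 and then to -0.68 relative to the vehicle mean. The 160 mg/kg/day tumour went there from 0.01 to -0.70 in 1 step.

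**Figure D4:**
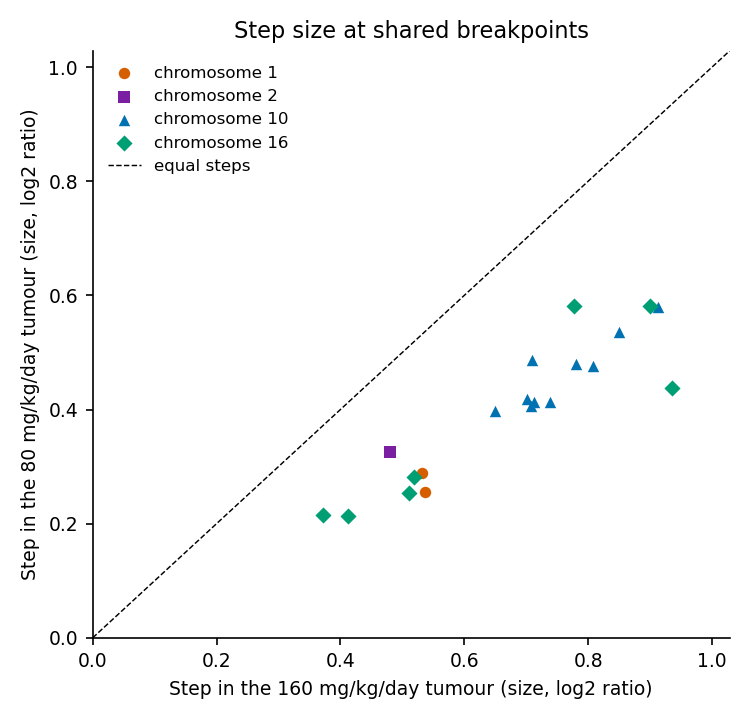
Size of the step in the log2 difference from the vehicle mean at the 20 breakpoints shared by the 80 mg/kg/day tumour (y axis) and the 160 mg/kg/day tumour (x axis), 1 point per breakpoint, by chromosome. Every point lies under the dashed line of equal steps, at a median ratio of 0.585.

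The level of several shared changes stood in a ratio close to that of the steps, but the level of the common losses did not. Distal chromosome 10 had 3 losses in the 80 and 160 mg/kg/day tumours with identical borders. The first, from 94946601 to 105261491, averaged -0.06, -0.53 and -0.81 in the 40, 80 and 160 mg/kg/day tumours and -0.10, -0.08 and -0.08 in the vehicle tumours, a ratio of 0.617 between the differences of the 80 and 160 mg/kg/day tumours. For the next distal loss the ratio was 0.656, for the last one 0.634 and for the whole of chromosome 19 it was 0.608. In the first and second common losses the ratio was 0.964 and 0.884, so that the 80 mg/kg/day tumour was nearly as low as the 160 mg/kg/day tumour there. With the normexp background the difference of the 80 mg/kg/day tumour was -0.06 both on chromosome 19 and in the first common loss. In the 3 distal losses its normexp difference was -0.01, -0.04 and 0.00. Breakpoints were not recomputed with normexp. With plain subtraction chromosome 19 was at -0.42 and -0.71 relative to the vehicle mean in the 80 and 160 mg/kg/day tumours.

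The last distal loss, from 122111227 to 124567664, held 4 genes with probes, which were named after their values were seen. Usp15, a deubiquitinase, was at 0.06, -0.40 and -0.62 in the 40, 80 and 160 mg/kg/day tumours and -0.04, -0.03 and -0.03 in the vehicle tumours. Ppm1h, a phosphatase, was at 0.07, -0.37 and -0.54 in the resistant and 0.07, 0.06 and 0.07 in the vehicle tumours. Tafa2 and Mon2 had the same order, with -0.15, -0.62 and -0.90 and with 0.04, -0.40 and -0.70 in the resistant tumours.

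Gains shared by the 80 and 160 mg/kg/day tumours lay on chromosomes 1, 2 and 16. The distal part of chromosome 2, from 119294938 to the last probe at 181918277, was raised in 2 adjoining segments of the 160 mg/kg/day tumour. In the second, from 151330306, the 80 mg/kg/day tumour was 0.27 above the vehicle mean, which is under the 0.3 asked for a call. With normexp the 80 mg/kg/day tumour was 0.17 and 0.11 above the vehicle mean in the 2 segments. The segment from 119294938 to 151324365 averaged 0.01, 0.33 and 0.53 in the 40, 80 and 160 mg/kg/day tumours and 0.00, 0.01 and 0.01 in the vehicle tumours, and the rest of the chromosome before it was at -0.01, -0.03 and 0.02 in the resistant and -0.04, -0.03 and -0.03 in the vehicle tumours.

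On chromosome 1 the order of the 2 tumours turned within one gained stretch. From 108766004 to 112975058 the 160 mg/kg/day tumour was the higher, with -0.03, 0.48 and 1.04 in the 40, 80 and 160 mg/kg/day tumours and -0.17, -0.15 and -0.15 in the vehicle tumours. This segment holds a cluster of serpin protease inhibitor genes, of which Serpinb2 was at 0.09, 0.25 and 1.39 in the resistant and -0.23, -0.08 and -0.14 in the vehicle tumours. From 112983078 to 121635042 the 80 mg/kg/day tumour was the higher on average, and its ratio to the 160 mg/kg/day tumour was 1.61. The order turned inside this segment. From 112807534 to 118007005 the 80 and 160 mg/kg/day tumours were at 0.53 and 0.69, and from 118050387 to 118537716 at 2.09 and 0.87. With normexp the order of the segment means did not turn, since the differences from the vehicle mean over 112983078 to 121635042 were 0.95 in the 80 and 0.97 in the 160 mg/kg/day tumour. Ptpn4, a cytoplasmic tyrosine phosphatase in that segment, was at 0.16, 2.17 and 0.74 in the resistant and 0.01, 0.02 and -0.01 in the vehicle tumours (limma adjusted p = 0.19). Epb41l5, a cytoskeletal adaptor, was at 0.21, 2.07 and 0.98 in the resistant and 0.02, 0.05 and 0.05 in the vehicle tumours (limma adjusted p = 0.15).

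Chromosome 16 carried losses that all vehicle tumours already had. Of its 1 Mb windows outside the changed segments of the 40 and 160 mg/kg/day tumours, 21 had a vehicle mean below -0.5. Their median was -0.91, -0.87 and -0.86 in the 40, 80 and 160 mg/kg/day tumours and -0.85, -0.87 and -0.90 in the vehicle tumours, so in the main values the resistant tumours kept these losses at the same depth. In the other 48 such windows the 80 mg/kg/day tumour was above every vehicle tumour in all 48, by a median of 0.20 (range 0.10 to 0.33), while in the 21 lost windows its median difference was 0.01. The 40 and 160 mg/kg/day tumours differed from the vehicle mean by medians of -0.05 and -0.01 in those 48 windows. The values of the 80 mg/kg/day tumour depended on the background model. Its normexp difference was 0.31 from 3151162 to 37354651, against 0.09 in the main values. From 42112065 to 55110145 it was 0.19 against 0.18, and from 70121762 to 94720325 it was -0.02 against 0.20.

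A small part of these vehicle losses was weaker or absent in the 80 and 160 mg/kg/day tumours. From 41797450 to 42092413 (39 probes) the mean was -0.86, -0.26 and 0.00 in the 40, 80 and 160 mg/kg/day tumours and -0.89, -0.90 and -0.94 in the vehicle tumours. Just before it, from 41404829 to 41792108, all 6 tumours were low, at -0.93, -0.86 and -0.91 in the resistant and -0.90, -0.91 and -0.97 in the vehicle tumours. With normexp, however, the 80 mg/kg/day tumour was 0.66 above the vehicle mean in that preceding interval as well. Both intervals lie in Lsamp, a cell adhesion gene of neurons, which was named after its values were seen. A further gain, at a ratio of 1.01 between the 80 and 160 mg/kg/day tumours that came with differences of 0.24 and 0.56 under normexp, ran from 55130021 to 70111213, at -0.01, 0.48 and 0.48 in the 40, 80 and 160 mg/kg/day tumours and -0.03, -0.01 and -0.03 in the vehicle tumours.

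Other changes were largest in 1 tumour or occurred in 1 tumour. The 40 mg/kg/day tumour was 0.27 above the vehicle mean over the whole of chromosome 8, where 55 of 128 windows were past 0.3. The genes farthest above the vehicle mean in that tumour were Zbtb21, at 2.58, 0.48 and 0.53 in the 40, 80 and 160 mg/kg/day tumours and 0.11, 0.24 and -0.01 in the vehicle tumours, and Fam3b, at 2.53, 0.24 and 0.53 in the resistant and 0.02, 0.10 and 0.10 in the vehicle tumours. Both lie in the last of 3 rising steps of distal chromosome 16, at 0.91, 1.41 and 2.25 in the 40 mg/kg/day tumour against vehicle means of 0.12, 0.08 and 0.08. The 80 and 160 mg/kg/day tumours lay above the vehicle mean there too, by 0.15 in each step and by 0.23 to 0.24. The window that starts at 94000001 was higher over the 3 resistant tumours, by 0.17 (limma adjusted p = 0.015). The first step of the 40 mg/kg/day tumour starts inside this window, at 94734730, so its value there averages raised and unraised probes. The 80 mg/kg/day tumour was also 0.20 above the vehicle mean from 70121762 to 94720325. With normexp it was 0.05, 0.05 and 0.06 above it in the 3 steps. The window does not therefore show a gain of like extent in the 3 tumours.

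In the 80 mg/kg/day tumour, chromosome 12 as a whole was 0.12 above the vehicle mean, at 0.00, 0.12 and 0.02 in the resistant and 0.00, 0.00 and 0.00 in the vehicle tumours. A part of chromosome 15 from 52333641 to 68634372 was at -0.01, 0.51 and 0.02 in the resistant and -0.03, -0.02 and -0.02 in the vehicle tumours. On chromosome 1, 7 of 193 windows were at least 0.3 below the vehicle mean in the 80 mg/kg/day tumour alone, though no segment there was that low. In the 160 mg/kg/day tumour, chromosome 3 was low from its first probe to 79629324, at -0.03, -0.07 and -0.71 in the resistant and -0.08, -0.06 and -0.07 in the vehicle tumours, and near 0 beyond. Cd69, a leukocyte receptor gene on the gained chromosome 6, was higher in the 160 mg/kg/day tumour than its chromosome, at 0.98, 1.03 and 2.29 in the resistant and 0.69, 0.90 and 0.80 in the vehicle tumours. It rests on 4 probes and did not pass (limma adjusted p = 0.23).

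Genes of the Hedgehog pathway and of pathways often altered in tumours were read from the same fit. The 11 lists were chosen with earlier results of these data known, so the counts from them are descriptions. They hold 235 different genes, of which 164 had at least 3 probes of their own. Of these, 5 were lower and 0 higher at an adjusted p under 0.05 (limma), against 1.09% and 0.0689% of all genes tested, and 51 (31.1%) lay at least 0.3 from the vehicle mean in at least 1 resistant tumour, against 23.5% of all genes. In the 40 mg/kg/day tumour 7 lay above and 9 below by that size (2.39% and 3.38% of all genes), in the 80 mg/kg/day tumour 10 and 14 (3.88% and 5.04%), and in the 160 mg/kg/day tumour 16 and 26 (8.84% and 10.9%). The 5 were Myb, Perp and Hdac2, which lie in the common losses, and Pik3cd and Kmt2d, which differed by -0.25 and -0.23. Without the 160 mg/kg/day tumour only Myb and Perp passed, and without vehicle replicate 1, 2 or 3 the numbers were 0, 1 and 0. Without the 40 mg/kg/day tumour 24 were lower and 16 higher, and without the 80 mg/kg/day tumour 15 and 1. With normexp, and with the 160 mg/kg/day tumour placed by its title, 0 passed. A further 54 members without enough probes were read from their 1 Mb window, and 10 of them lay in windows called lower, against 5.05% of all windows. Sgk1 and Tnfaip3 were among them as parts of the common losses, and the windows of the other 8 differed by -0.16 to -0.07.

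The Hedgehog ligand Shh, its receptor Ptch1 and Smo showed no difference as large as 0.3. The window of Shh was at -0.10, -0.09 and -0.04 in the resistant and -0.08, -0.08 and -0.07 in the vehicle tumours. Ptch1 was at 0.05, 0.07 and 0.03 in the resistant and 0.08, 0.10 and 0.06 in the vehicle tumours (limma adjusted p = 0.48), and Smo, the drug's target, which lies on the gained chromosome 6, at 0.64, 0.54 and 0.64 in the resistant and 0.58, 0.61 and 0.71 in the vehicle tumours (limma adjusted p = 0.68). The Smo groups overlapped, with a difference of -0.03 and an SE of 0.054.

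Several other pathway members, on chromosome 19, were lower in the 80 and 160 mg/kg/day tumours without passing the test over the 3 tumours. The whole of chromosome 19 differed from the vehicle mean by -0.02, -0.44 and -0.73 in the 40, 80 and 160 mg/kg/day tumours. Sufu, the brake on the Gli factors, lies on chromosome 19 and was at 0.18, -0.22 and -0.40 in the 40, 80 and 160 mg/kg/day tumours and 0.13, 0.21 and 0.21 in the vehicle tumours (difference -0.33, SE 0.141, limma adjusted p = 0.15). Btrc, the ubiquitin ligase subunit that recognises Gli proteins, was at 0.00, -0.37 and -0.67 in the resistant and 0.02, 0.06 and 0.10 in the vehicle tumours (limma adjusted p = 0.14). Grk2, a kinase that phosphorylates Smo, was at 0.03, -0.24 and -0.45 in the resistant and 0.16, 0.00 and 0.16 in the vehicle tumours. The 3 genes had the same order among the resistant tumours as the whole chromosome, with the 40 mg/kg/day tumour near the vehicle tumours.

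Gsk3b, a kinase that marks Gli proteins for processing, lies on chromosome 16 and was at 0.02, 0.51 and 0.45 in the resistant and 0.16, 0.12 and 0.11 in the vehicle tumours (limma adjusted p = 0.3). The effector Gli3 did not overlap between groups, at 0.03, 0.00 and 0.09 in the resistant and -0.18, -0.11 and -0.16 in the vehicle tumours, but did not pass (limma adjusted p = 0.056). The window of Gli1 was at 0.01, 0.09 and 0.11 in the resistant and 0.13, 0.11 and 0.15 in the vehicle tumours. Gli2 had no probe named after it. The 41 probes between its neighbours in the RefSeq gene order, Tfcp2l1 and Inhbb, averaged 0.21, 2.28 and 1.20 in the 40, 80 and 160 mg/kg/day tumours and 0.07, 0.09 and 0.14 in the vehicle tumours. Of the 19 measured members of the Hedgehog core list 0 passed, with a median difference of -0.03, and of the 10 measured Hedgehog targets 0 passed, with a median of -0.07, against -0.0041 over all genes.

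In the PI3K pathway 1 of 27 measured members passed (against 1.16% of all genes), Pik3cd. It was at 0.04, 0.01 and -0.03 in the resistant and 0.25, 0.27 and 0.27 in the vehicle tumours. The resistant tumours were thus near 0 and the vehicle tumours above 0. Foxo3, a transcription factor inhibited by Akt, lies on chromosome 10 past the common losses and was low in the 40 mg/kg/day tumour only, at -0.83, 0.03 and 0.09 in the resistant and 0.12, 0.07 and 0.05 in the vehicle tumours. Of 23 measured members of the RTK and MAPK list 0 passed. Fgf2, a growth factor, lies in the part of chromosome 3 lost in the 160 mg/kg/day tumour and was at -0.16, -0.13 and -0.91 in the resistant and 0.03, -0.04 and -0.03 in the vehicle tumours.

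Among 12 measured genes of the p53 pathway 1 passed (against 1.16% of all genes), and it lies in the first common loss of chromosome 10. That was Perp, a p53 target in cell adhesion and death, at -0.79, -0.59 and -0.61 in the resistant and 0.09, -0.01 and 0.06 in the vehicle tumours (difference -0.71, SE 0.064, limma adjusted p = 0.0056). Sesn1, a stress gene, was lowest in the 40 mg/kg/day tumour at -1.07, -0.17 and -0.28, against 0.01, 0.00 and -0.04 in the vehicle tumours. Of 13 measured apoptosis genes 0 passed. Bcl2 and Bcl2l1, which block mitochondrial apoptosis, lie in the gained parts of chromosomes 1 and 2: Bcl2 was at -0.15, 0.23 and 0.49 in the resistant and -0.04, -0.08 and -0.08 in the vehicle tumours, and Bcl2l1 at -0.05, 0.40 and 0.53 in the resistant and 0.12, 0.14 and 0.11 in the vehicle tumours. Fas, the death receptor, lies on chromosome 19 and was at -0.08, -0.56 and -0.82 in the resistant and -0.09, 0.00 and 0.03 in the vehicle tumours.

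Of 18 measured genes of the primary cilium 0 passed. Kif3b, a motor subunit for transport along the cilium, was at 0.21, 0.61 and 0.81 in the resistant and 0.08, 0.23 and 0.15 in the vehicle tumours, and Arl13b, a ciliary GTPase, at -0.02, 0.54 and 0.52 in the resistant and 0.01, 0.00 and -0.04 in the vehicle tumours. Ift80, a subunit of intraflagellar transport, was at 0.00, 0.01 and -0.64 in the resistant and 0.01, 0.00 and 0.00 in the vehicle tumours. Of 13 measured genes of drug efflux and metabolism 0 passed. Nr1i2, the xenobiotic receptor PXR, was at 0.17, 0.71 and 0.76 in the resistant and 0.04, 0.30 and 0.21 in the vehicle tumours (limma adjusted p = 0.18). Abcc2, a transporter that exports drug conjugates, was at 0.11, -0.41 and -0.61 in the resistant and 0.05, 0.06 and 0.05 in the vehicle tumours.

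Of 10 measured cell cycle genes and of 6 measured granule neuron lineage genes 0 passed. The cell cycle gene Rbl1, a relative of the retinoblastoma protein, was at 0.08, 0.42 and 0.63 in the resistant and 0.08, 0.11 and 0.11 in the vehicle tumours. No measured granule neuron gene reached 0.3 in any tumour. In the list of tumour suppressors and medulloblastoma drivers 3 of 20 measured genes passed (against 1.16% of all genes), Myb, Hdac2 and Kmt2d, of which Myb and Hdac2 lie in the common losses. This list, too, was chosen with earlier results of these data known, so its share is a description. Crebbp, a histone acetyltransferase gene in the shared chromosome 16 losses, was low in all 6 tumours, at -0.92, -0.84 and -0.85 in the resistant and -0.87, -0.89 and -0.88 in the vehicle tumours.

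**Figure D5:**
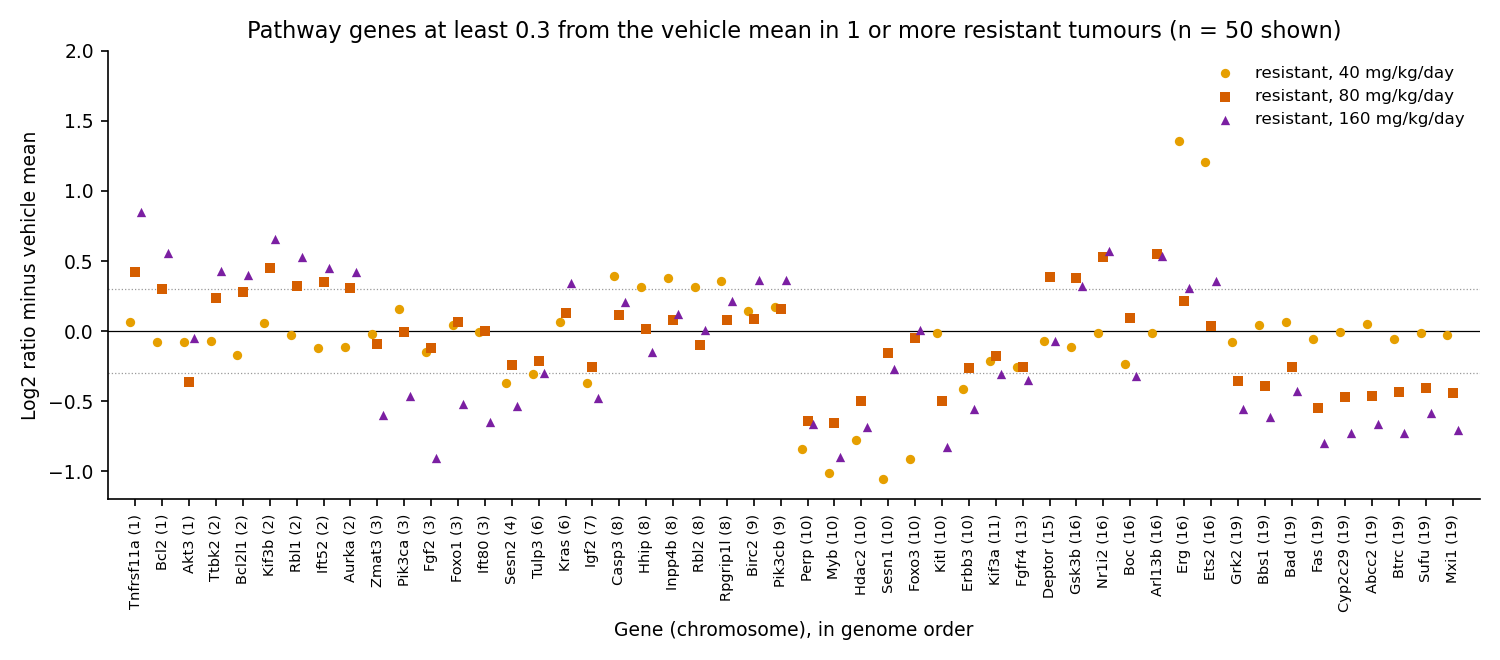
Log2 ratio minus the vehicle mean (y axis) in the 3 resistant tumours for 50 of the 51 listed genes with at least 3 probes that lie at least 0.3 from the vehicle mean in 1 or more tumours (x axis, genome order, chromosome in brackets). The dotted lines mark 0.3, and on chromosome 19 the 80 and 160 mg/kg/day tumours lie lower than the 40 mg/kg/day tumour.

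The remaining windows that passed were small shifts. The 93 windows lower by under 0.3 had differences from -0.19 to -0.06 with a median of -0.10, on 14 chromosomes, and most lay on chromosomes 4, 5, 7 and 11. The 16 higher windows had a median difference of 0.14. The lower windows held a median of 135 probes, against 92 over all windows, and their median vehicle level was 0.09, against -0.02 over all windows. A run of 5 on chromosome 11, from 94000001 to 99000000, averaged -0.05, 0.00 and -0.03 in the resistant and 0.11, 0.08 and 0.10 in the vehicle tumours. The resistant tumours were near 0 there and the vehicle tumours above 0. The count of 137 windows was 27 without the 160 mg/kg/day tumour, 24 without any 1 of the vehicle tumours and 29 with array weights, and 392 and 534 without the 40 and without the 80 mg/kg/day tumour. The gene count of 118 was 1642, 611 and 78 without the 40, 80 and 160 mg/kg/day tumours and 44 to 51 without 1 vehicle tumour. The part of array noise and probe density in these small shifts was not tested.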

How the data were processed

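The 6 DNA arrays were read from the scanner files as deposited. Per the file headers, the authors' processed red and green intensities come from Agilent Feature Extraction 9.5.3.1, which subtracts background and normalizes the dyes, with probe positions in build mm8. The authors' deposited value table holds log10 ratios of the same arrays (r of 0.99957 to 0.9999 with the scanner ratios) and served as an alternative. Log2 ratios were computed from the deposited intensities, without control spots or outlier flags, averaged per probe name and centred on each array's autosomal median, with no loess or quantile step. Both channels were well above background for 99.9597% to 99.9843% of probes, and 220478 of 220668 autosomal probes had a value on all arrays.

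Windows of 1 Mb with at least 5 probes and genes with at least 3 probes were tested, two-sided, with limma 3.58.1 (R 4.3.3, trend, 4 residual degrees of freedom). Segments came from penalised least squares (penalty multiplier 3, call at 0.3, at least 5 probes). Probe names were updated through the GRCm38.p6 gene table, used for names and order only: 83952 probes matched by symbol, 19203 by synonym and 1929 by accession, and 41481 named probes did not match. Named genes are list members with at least 3 probes, up to 5 genes of each run of windows or common region, and the 5 farthest genes per tumour and direction with at most 2 from one segment, with exceptions stated. Some members are counted but not reported here by name. The 11 lists, the members and the tests were chosen with earlier results of these data known.

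On simulated data with 200 features shifted equally in all resistant arrays, 100% of windows shifted by 0.3 were recovered, and 0% and 27.5% of genes shifted by 0.3 and 0.6. These rates do not hold for changes that differ in depth between the tumours. The chromosome 10 window from 31000001 differed by -0.52 and did not pass (limma adjusted p = 0.057). Steps of 0.4 over 50 probes were found in 0% of trials when the simulated noise was that of the noisiest array. Alternatives changed the signals, centring, window size, filters, thresholds, penalty, weights and samples. A scan date block was not fitted because all 6 arrays were scanned on 1 day. Python 3.11.15, numpy 2.4.6, pandas 2.3.3, numba 0.67.0 and matplotlib 3.10.9 were used.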

Additional observations from a re-analysis of the deposited data

How the results depend on the processing

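The summed length of the common losses, 29.4 Mb, was 29.0 to 29.5 Mb under 10 alternatives and 0 with normexp, and 24 to 29 of the 29 proximal chromosome 10 windows passed under 16 alternatives, against 0 with normexp and 0 by title. The count of 137 windows was 0 with normexp, 256 with plain background subtraction, 0 with the 160 mg/kg/day tumour placed by its title, 29 with array weights, 260 with windows of 0.5 Mb, 25 with windows of 5 Mb and 28 when a size of 0.3 was also asked. Leaving out 1 tumour gave 24 to 534. The count of 118 genes by limma was 0 with normexp and 0 by title (1551 and 225 at an unadjusted p under 0.05), 426 when arrays were scaled to the chromosome 6 gain, and 44 to 1642 leaving out 1 tumour. The excess of gains in resistant tumours, 3.12 percentage points, was -0.215 with normexp (6.63% in resistant and 6.85% in vehicle tumours), 5.48 with calls at 0.2, 0.848 with calls at 0.5, and 2.25 to 4.64 leaving out 1 tumour. The excess of losses, 4.18 percentage points, was 2.48 with normexp, 1.20 by title and 2.89 to 5.48 leaving out 1 tumour. No gain was common to the 3 resistant tumours, but 3.97 Mb was with calls at 0.2, 0.179 Mb with calls at 0.5 and 0.059 Mb with a penalty multiplier of 1. The 611 windows past 0.3, summed over tumours, were 368 past 0.5. Normexp lowered the 80 mg/kg/day tumour's count from 213 windows to 62, while plain subtraction gave 190. The cause of that difference was not tested. No paired analysis was possible because the resistant samples carry a dose and no replicate number. No scan date block was run.

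Noise limits small changes: simulated steps of 0.4 over 50 probes were found in 100% of trials with the noise of vehicle replicate 1 and in 0% with that of the noisiest array. The design allows no exact permutation p under 0.1. Copy number of tumour cells cannot be read from these ratios, because host DNA and mixtures of tumour cells in each extract were not measured.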

Other observations

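Some values belong in no comparison above. Beside both chromosome 10 losses, 1 more region met the rule of a loss in all 3 resistant tumours and no vehicle tumour, on chromosome 16 from 3151162 to 3455824, with 7 probes. Its means were -0.05, -0.17 and -0.11 in the 40, 80 and 160 mg/kg/day tumours and -0.18, -0.09 and -0.14 in the vehicle tumours, so the groups overlapped. It was not described as a common loss in the text, but the 29.4 Mb given as their summed length includes it.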
